A study of Mus musculus with 5 samples.

Results

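Mouse embryonic stem (ES) cells were differentiated towards spinal motor neurons, and the step from Day3 to Day4 was followed on 2 of the 5 arrays of the course. The Day3 array held RNA of embryoid bodies, the floating aggregates in which the cells differentiate, after 1 day of retinoic acid (RA), and the Day4 array held RNA of embryoid bodies after 2 days of RA. Both samples were wild type and male according to the labels, and both shared the same induction, named in the labels as RA with Shh and in the study's methods as RA with the smoothened agonist SAG. Each array stood for 1 RNA sample of a mixed aggregate, and the number of cultures behind it is not given in the sources used here. As each time point had 1 array, there was no replicate spread and changes are given as sizes with no p-value, and a gene is called raised or lowered when its level changed 2-fold or more. Of 55681 mouse probes, 26300 matched 19897 genes by accession, and 15626 of these genes were well above background on at least 1 of the 2 arrays and entered the comparison. In all, 565 genes were raised on Day4, 3.62% of the 15626, and 761 were lowered, 4.87%.

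In the embryonic spinal cord, Shh from the notochord and floor plate patterns the ventral neural tube. The progenitors next to the floor plate form the p3 domain, marked by Nkx2-2, and the progenitors above it form the pMN domain, marked by Olig2, from which motor neurons are born. Progenitors that leave the cell cycle switch on proneural factors such as Neurog2, while their neighbours are held back by Notch signalling through Hes genes. Isl1 marks the motor neurons that have left the cycle.

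All levels below are log2 signals after quantile normalization over the 5 arrays, and they compare 1 probe with itself across arrays, not genes with each other. The Day7 array was on another slide than the ES, Day2, Day3 and Day4 arrays. In comparisons with Day7, slide and day therefore cannot be told apart. On Day3, 57.5% of the mouse probes were well above background, and on Day4 65.7%. The lowest log2 signal of a probe well above background was 5.22 on Day3 and 4.05 on Day4, and where a gene was not well above background on 1 of the 2 arrays, the change against this level is written as "at least". Of the 565 raised genes, 413 were well above background on both arrays and 152 on Day4 alone. Of the 761 lowered genes, 577 were well above background on both arrays and 184 on Day3 alone. The 2 lowest signals, 5.22 and 4.05, lay more than 2-fold apart. A gene well above background on Day3 alone with a Day4 signal under 4.05 was therefore always called lowered. A gene dim on Day3 had no such head start towards a raised call. Over the 14279 genes well above background on both arrays, 2.89% were raised and 4.04% lowered. The median change of all genes was -0.01. The 399 probes printed in more than 4 spots had a median SD between spots of 0.07 on each array, a measure of technical error inside an array. Where a value is given with spike-in scaling, the arrays were set to the E1A control RNA instead, whose amount per array is not given in the sources used here. In such bulk RNA, fewer cells of a type and less RNA per cell cannot be told apart.

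**Figure D1:**
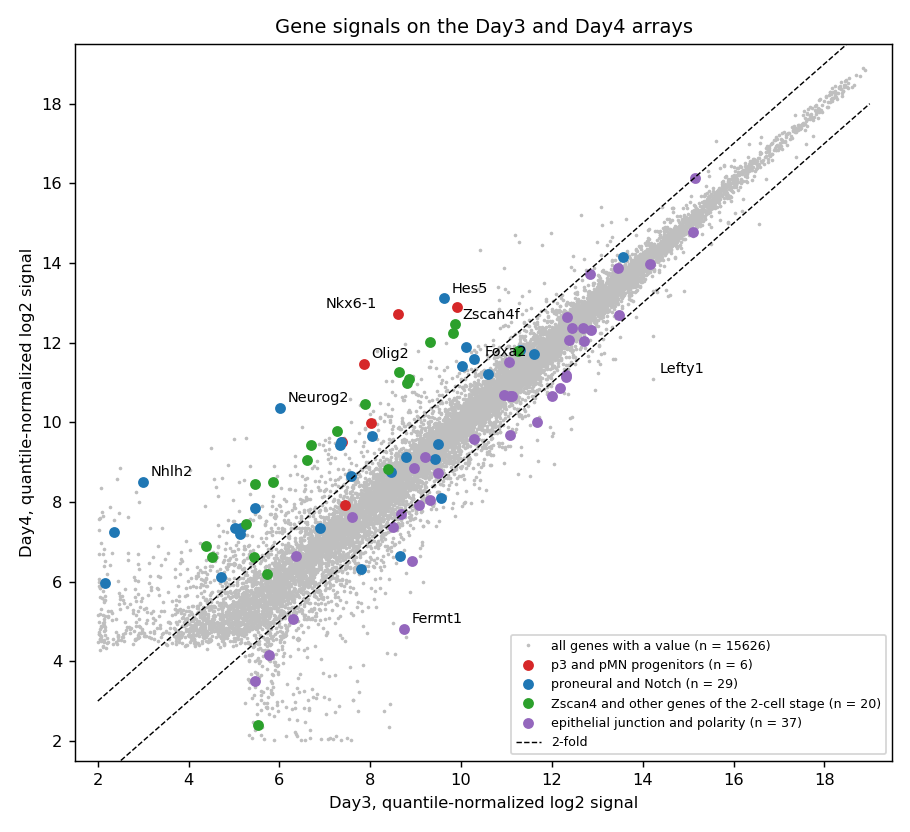
Quantile-normalized log2 signal of each gene on the Day3 array (horizontal) against the Day4 array (vertical), 1 array per time point, with 4 gene lists in colour and dashed lines at 2-fold; signals not well above background are drawn where they were measured. Olig2 and Nkx6-1 lie far above the upper line, at 11.47 and 12.73 on Day4, and Lefty1 lies below the lower line at 11.09.

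The 3 marker genes of the step were all higher on Day4. Olig2, the bHLH factor that defines motor neuron progenitors, had levels of 10.34, 8.47, 7.87, 11.47 and 7.35 on the ES, Day2, Day3, Day4 and Day7 arrays. Its rise of 3.61 from Day3 to Day4 was 12.2-fold, and of the 5 arrays Day4 was the highest. Olig2 was well above background on every array, ES cells included, so the step was a rise from a low level and not a first detection. Isl1, the LIM factor of newborn motor neurons, stood at 7.18, 5.94, 5.34, 8.19 and 13.25 in the same order. The 8 usable spots of its probe on Day3 had an SD of 0.16 and the 10 spots on Day4 an SD of 0.08, against a change of 2.85 (7.20-fold). Its Day3 level was close to the lowest signal well above background, and after normexp background correction the change was 1.72. Foxa2, the forkhead factor of the floor plate and of endoderm, stood at 6.59, 9.55, 10.36, 11.52 and 14.12 on the same 5 arrays. Its change of 1.17 (2.24-fold) was the smallest of the 3 and was under 2-fold without normalization (0.68) and with spike-in scaling (0.16), and a dimmer probe of the gene changed by 0.99, just under 2-fold.

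Among the p3 and pMN genes, 5 of the 6 with a value were raised and none was lowered. That is 83.3% raised against 3.62% of all genes, and the median change of the list was 2.56 against -0.01 over all genes. Nkx6-1, a homeodomain factor of the ventral progenitor domains and of motor neurons, went from 8.60 to 12.73, a rise of 17.5-fold and the second largest among genes well above background on both arrays. It had stood at 6.72 in ES cells and 7.28 on Day2, and it was higher still on Day7, at 14.31. Nkx2-9, a close relative of Nkx2-2, went from 9.91 to 12.89 (7.87-fold). Nkx6-2, the paralogue of Nkx6-1, went from 7.37 to 9.51 (4.40-fold). Olig1, the neighbour and paralogue of Olig2, went from 8.01 to 9.99 (3.96-fold), below its level of 12.28 in ES cells. Nkx2-2, the defining gene of p3 progenitors, was at 7.45 on Day3 and 7.92 on Day4, a change of 0.47, and reached 11.01 on Day7. Sim1, which marks the V3 interneurons born from p3, was well above background on neither array. The genes of this list that rose were therefore Olig1, Olig2, Nkx6-1, Nkx6-2 and Nkx2-9, while Nkx2-2 stayed under 2-fold.

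The floor plate list held less, with 22.2% of its genes raised against 3.62% of all genes. Of its 9 genes with a value, Nkx6-1 and Foxa2 were raised and none was lowered, with a median change of 0.29, which became -0.07 without normalization between arrays, with 1 raised, and -0.59 with spike-in scaling, with 1 raised and 3 lowered. Shh itself, Corin and Ferd3l were well above background on neither array, and Shh reached 12.71 on Day7. Ntn1, the axon attractant secreted by the floor plate, went from 9.83 to 10.82, a change of 0.99, and its other probe rose by 1.31, so that with the mean over probes 3 of the 9 were raised. Foxa1, the partner of Foxa2, was at 9.40 and 9.35, and Spon1, another secreted floor plate protein, at 6.09 and 6.64.

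**Figure D2:**
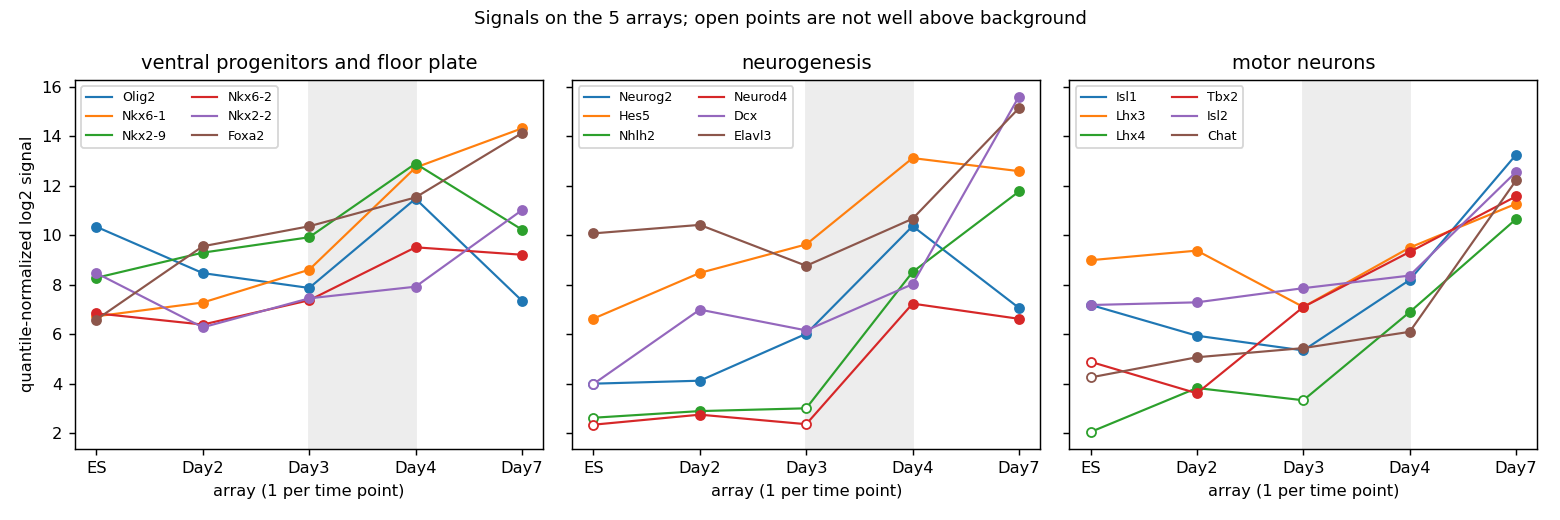
Quantile-normalized log2 signal (vertical) of 18 marker genes on the 5 arrays (horizontal, 1 array per time point, so no error bars), with the step from Day3 to Day4 shaded and open points for signals not well above background. Olig2 and Neurog2 are highest on Day4, at 11.47 and 10.37, whereas Isl1 and Foxa2 go on to 13.25 and 14.12 on Day7.

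Hedgehog pathway genes changed less than the p3 and pMN genes, and 14.3% of them were raised against 3.62% of all genes. Of the 14 with a value, 2 were raised, none was lowered, and the median change was 0.26, which turned to -0.12 without normalization, with 1 raised, and to -0.64 with spike-in scaling, with 2 lowered and none raised. The raised ones were both co-receptors of Shh: Gas1 went from 9.44 to 11.37 (3.82-fold) and Boc from 8.88 to 9.92 (2.06-fold). The other probes of Gas1 changed by 0.84 and by at least 1.77. Gli1 and Ptch1, which are themselves transcribed in response to hedgehog signalling, changed by 0.97 and 0.88, just under 2-fold, from 11.84 to 12.81 and from 9.27 to 10.15. The transducer Smo, the effectors Gli2 and Gli3 and the inhibitor Sufu changed by 0.06 to 0.18.

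Genes of more dorsal progenitors were split. Of 20 with a value, 4 were raised and 3 lowered, both larger shares than the 3.62% and 4.87% of all genes. The median change was 0.10, which fell below 0 without normalization (-0.09, with 3 raised and 5 lowered) and with spike-in scaling (-0.61, with 3 and 6). After normexp 3 were raised and 1 lowered. Dbx1, the homeobox gene of the p0 domain at the middle of the neural tube, went from 9.30 to 11.39 (4.26-fold), from signals of 2.94 in ES cells and 2.88 on Day2, and was back at 4.44 on Day7. Dbx2 went from 7.80 to 8.83 (2.04-fold). Msx1, a roof plate gene that answers to BMP, went from 8.06 to 10.30 (4.72-fold). Olig3 and Zic2, genes of the dorsal neural tube, fell by 1.22 and 1.37. Gsx2, a dorsal progenitor factor, was lowered at least 2.41-fold and was close to background on both arrays, with signals of 5.32 and 2.15. Most of this bound is the gap between the lowest signals well above background of the 2 arrays, and the change was -0.59 after normexp. Pax6, which is expressed across much of the ventricular zone, was level at 10.21 and 10.28. The ventral genes were thus not the only patterning genes that rose: Dbx1 and Msx1, which belong to the middle and the top of the tube, rose by similar sizes as Nkx6-2.

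Many genes of neurogenesis rose on Day4. Of the 29 proneural and Notch genes with a value, 15 were raised and 3 lowered, 51.7% and 10.3% against 3.62% and 4.87% of all genes, with a median change of 1.08. Of the 22 well above background on both arrays 10 were raised and 3 lowered, with a median of 0.61. After normexp background correction 13 were raised (0.58), without normalization 12 (0.77), and with spike-in scaling 10 were raised and 5 lowered (0.25). Neurog2, the proneural factor of the pMN domain, had levels of 4.0, 4.12, 6.02, 10.37 and 7.06 on the ES, Day2, Day3, Day4 and Day7 arrays. Its 20.4-fold rise was the largest of all genes well above background on both arrays, and Day4 was its highest array. After normexp its change was 3.31, below that of Nkx6-1 (3.91). Other neuronal factors were not well above background on Day3. Nhlh2, a bHLH factor of newborn neurons, had a signal of 3.0 on Day3, not well above background, and 8.51 on Day4, a rise of at least 9.80-fold. Neurod4, Neurod1 and Neurog1 were raised at least 4.04-fold, 4.40-fold and 4.40-fold in the same way. Ebf2 and Ebf3, which act in differentiating neurons, rose by 2.39 and 2.15, and Insm1, a factor of the last progenitor divisions, by 1.76.

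Genes of the Notch pathway differed among themselves. Hes5, a bHLH repressor switched on by Notch in neural progenitors, stood at 6.63, 8.47, 9.63, 13.11 and 12.59 on the ES, Day2, Day3, Day4 and Day7 arrays, and its rise on Day4 was 11.2-fold. Its relative Hes1 was at 8.78 and 9.12, a change of 0.34. Hey1, another target of Notch, went from 8.04 to 9.66 (3.07-fold). Nrarp, a feedback inhibitor of Notch, rose at least 3.92-fold, or by 0.58 on the log2 scale after normexp. Among ligands, Dll3 and Jag1 rose by 1.30 and 1.08, the change of Dll4 was at least 0.90, and Dll1 was level at 9.50 and 9.47. The receptors Notch1 and Notch2 changed by 0.46 and 0.11. The glycosyltransferases that tune the receptor went apart, Mfng up by 1.37 and Lfng down by 1.48. The other lowered genes of the list were Neurog3, by 2.00, and Ebf1, by 1.49, and both were far higher on Day7, at 13.30 and 11.35. Close to spots bright on a single array, a flag explained below, lay 2 of the 15 raised genes, Ebf2 among them.

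The promoter of Hes5 is shown because this gene is the Notch target with the largest rise and carries the recognition letters of RBPJ, the DNA-binding partner of activated Notch. In RefSeq's mouse build GRCm38.p6 the 250 bases before its start lie at chr4:154960673-154960922 on the plus strand, and matches to GTGGGAA or its reverse complement TTCCCAC are in capitals.
Hes5 promoter: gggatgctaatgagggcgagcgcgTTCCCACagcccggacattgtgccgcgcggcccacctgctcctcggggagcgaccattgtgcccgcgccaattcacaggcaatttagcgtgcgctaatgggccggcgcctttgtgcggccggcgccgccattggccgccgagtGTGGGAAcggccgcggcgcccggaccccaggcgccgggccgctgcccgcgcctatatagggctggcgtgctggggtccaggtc
The matches begin 226 and 83 bases before the start. Either strand of this motif was present in 814 of the 12446 promoters of genes with a value, 6.54%, in 25 of 412 promoters of raised genes, 6.07%, and in 38 of 579 of lowered genes, 6.56%. Of the 15 raised proneural and Notch genes 10 had a promoter in the table, and only Hes5 and Nhlh2 among those 10 held the motif. The GLI motif TGGGTGGTC, searched on both strands, was in 27 of the 12446 promoters (0.217%) and in none of the raised or lowered genes, and a missing match says only that these letters are not in this window.

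Other motor neuron genes were raised too, 41.7% of the list against 3.62% of all genes, while 8.33% were lowered against 4.87%. Of 12 with a value, 5 were raised and 1 was lowered, and the median change of 0.58 became -0.19 under spike-in scaling only, with 5 raised and 2 lowered. Lhx3, the LIM partner of Isl1 in somatic motor neurons, went from 7.10 to 9.50 (5.27-fold) and was near its Day2 level of 9.37 again. Tbx2, a T-box factor of cranial motor neurons and of other tissues, went from 7.10 to 9.32 (4.67-fold). Lhx4, the paralogue of Lhx3, was not well above background on Day3 and rose at least 3.19-fold. The genes of the mature transmitter system changed little, Chat by 0.66 and Slc18a3, the vesicular acetylcholine transporter, by 0.50, and Slc5a7, the choline transporter, was well above background on neither array. Isl2, which follows Isl1, changed by 0.51. Pou3f1, a motor pool factor that is also an epiblast gene, fell by 2.12. Mnx1 has no matched probe and is not analysed here. Among 13 spinal interneuron genes with a value, 1 was raised and 1 lowered (7.69% each), Gata3 rose by 1.90, and the median was 0.00. Without normalization 1 was raised and 3 lowered (-0.29), and with spike-in scaling 1 and 5 (-0.81).

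General neuronal genes did not move as a block. Of 20 pan-neuronal genes, 3 were raised and 1 lowered, and the median was 0.07, which was -0.09 over genes well above background on both arrays, -0.37 without normalization, with 3 raised and 5 lowered, and -0.89 with spike-in scaling, with 1 and 10. Elavl3, an RNA-binding protein of newborn neurons, went from 8.76 to 10.66 (3.73-fold), the microtubule protein Dcx from 6.15 to 8.02 (3.65-fold, or 0.93 on the log2 scale with the mean over probes) and the neurofilament Nefm from 7.0 to 8.30 (2.45-fold, SD 0.10 over 9 spots on Day3 and 0.05 over 10 on Day4). The other probes of Dcx gave no fold: 1 of the 2 was well above background on Day4 alone and the other on neither array. Tubb3 changed by 0.78, from 11.54 to 12.32. The adhesion molecule L1cam fell by 1.45, and Gap43 and Ina were lower by 0.82 and 0.80.

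A wider list of 44 synaptic and mature neuronal genes with a value, drawn up after the values had been seen, held 22 lowered genes, 50% against 4.87% of all genes, and no raised one. It held 11 lowered genes after normexp and 31 with spike-in scaling. Its median change was -0.93 and lay between -1.88 and -0.51 under the 11 other settings that were run. Prph, a neuronal intermediate filament, stood at 10.84, 12.05, 11.97, 9.88 and 13.71 on the ES, Day2, Day3, Day4 and Day7 arrays. The G protein subunit Gng3 stood at 14.11, 14.53, 14.23, 12.16 and 15.47, and the axonal motor Kif1a at 11.62, 12.44, 13.35, 11.58 and 15.61. All 3 were lower on Day4 than on Day3 and highest on Day7. Their falls on Day4 were 2.09, 2.07 and 1.77, and the other probe of Kif1a fell by 1.24. Syn1, which tethers synaptic vesicles, fell by 1.47, the heavy neurofilament Nefh by 1.63, Stmn4 by 1.08 and Crmp1, a growth cone protein, by 1.11. Snap25 changed by 0.55, and Syp and Vamp2, membrane proteins of synaptic vesicles, by 0.16 and 0.03. Since this list was chosen with its values known, its share of lowered genes is a description.

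Genes of the neural progenitor state were mixed in the same step. Of 15 neuroepithelial genes, 7 were raised (46.7% against 3.62% of all genes) and none lowered, with a median of 0.60. Without normalization 3 were raised and 2 lowered (0.07), and with spike-in scaling 2 and 4 (-0.45). The raised genes were, besides Hes5, Sox9, a progenitor and gliogenic factor, which went from 6.99 to 9.56 (5.94-fold, SD 0.11 and 0.08 over 10 spots), the BMP-induced repressor Id4 (1.5), the intermediate filament Vim (1.47), Fabp7, a radial glia lipid carrier (1.21), the neural cadherin Cdh2 (1.17, and 1.18 with its other probe) and Sox3 (1.03). The SoxB1 genes Sox1 and Sox2 were lower, by 0.88 and 0.57, and the other probe of Sox1 was at 0.13. Of 11 glial genes with a value, 3 were raised (27.3%): Olig1, Fabp7 and the glutamate transporter Slc1a3 (2.32). With spike-in scaling 2 were raised and 4 lowered. Gfap and Aqp4, which mark astrocytes, changed by -0.42 and -0.54, while the other probe of Aqp4 rose by at least 0.40.

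Proliferation genes were level relative to the bulk of the genes, with 4.17% raised against 3.62% of all genes. Of 24 genes of mitosis and replication, Ccnd2 alone was raised, from 13.09 to 15.41 (5.00-fold), and the other 23 lay between -0.38 and 0.27. The median of the list was -0.07, or -0.57 without normalization and -1.09 with spike-in scaling, where 16 of the 24 were lowered. Mki67 was at 15.08 and 15.12 and Pcna at 15.47 and 15.48. Ccnd2, a D-type cyclin of neural progenitors, stood at 9.79 in ES cells and 12.57 on Day7. Of 10 cell cycle inhibitors and related genes none was raised or lowered, and Cdkn1c, which drives cell cycle exit in neurons, changed by 0.90. Housekeeping genes had a median of -0.01, with none of the 14 past 2-fold, and this median was -0.47 without normalization and -0.99 with spike-in scaling.

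**Figure D3:**
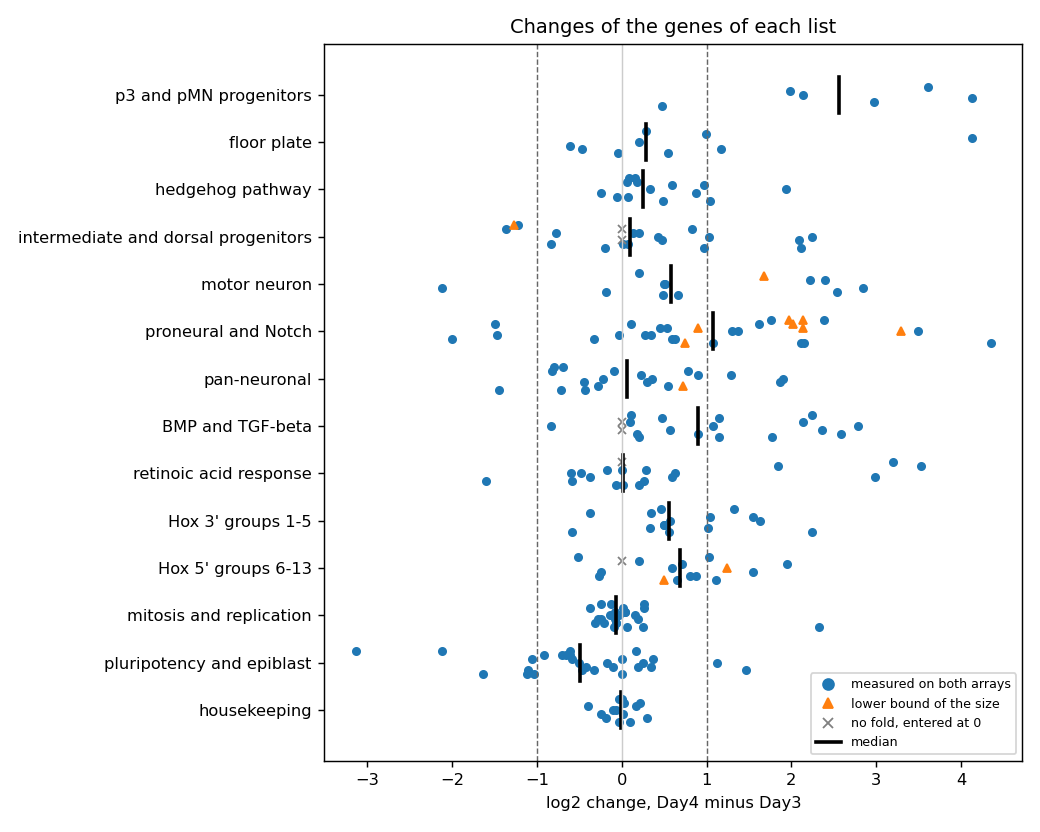
Log2 change from Day3 to Day4 (horizontal, Day4 minus Day3) of the genes of 14 lists (rows), 1 point per gene, with circles for genes well above background on both arrays, triangles for lower bounds, crosses for genes with no fold and a black bar for the median. Dashed lines mark 2-fold. The p3 and pMN list has a median of 2.56, the proneural and Notch list 1.08, and the housekeeping list -0.01.

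Many BMP and TGF-beta genes rose in the same step, 47.4% of the list against 3.62% of all genes. Of 19 with a value, 9 were raised and none lowered, and the median of 0.90 stayed above 0 in all settings except spike-in scaling, where it was 0.00 with 5 raised and 1 lowered. Id1, Id2 and Id3, repressors induced by BMP, went from 10.81 to 13.39 (5.98-fold), 10.98 to 13.34 (5.15-fold) and 11.98 to 14.77 (6.88-fold). Id1 had stood at 13.17 in ES cells and 8.31 on Day2, so Day4 brought it back to its starting level. The ligands Tgfb2 and Bmp2 rose by 2.13 and 1.14 and Bmp4 changed by 0.90, the inhibitors Smad7, Bmper and Fst rose by 1.07, 1.15 and 1.78, and Nog and Chrd changed by 0.18 and 0.11. In the Wnt list, 6 of 24 were raised (25.0%) and 1 lowered (4.17%), with a median of 0.23. The median turned to -0.05 without normalization, with 4 raised and 1 lowered, and -0.44 with spike-in scaling, with 3 and 5. Lgr5, the R-spondin receptor, led it with a rise of 2.80, followed by the ligands Wnt5a (2.02) and Wnt7a (at least 1.93). Axin2, the common feedback target of Wnt, changed by 0.06, and its other probe rose by at least 0.77. In the FGF list, 3 of 23 were raised and 1 lowered, with a median of -0.13, against 2 and 3 (-0.54) without normalization and 1 and 13 (-1.06) with spike-in scaling. Fgf15, a progenitor ligand, rose by 2.70, Fgf9 by 1.39 and the inhibitor Spry1 by 1.12, and the feedback genes Dusp6, Etv4 and Etv5 changed by -0.14, -0.16 and -0.44.

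RA-regulated genes differed among themselves, with 21.1% raised and 5.26% lowered against 3.62% and 4.87% of all genes. Of 19, 4 were raised and 1 lowered, with a median of 0.02, or -0.32 without normalization, with 4 raised and 3 lowered, and -0.84 with spike-in scaling, with 3 and 8. Cyp26b1, an enzyme that breaks down RA, stood at 6.15, 9.37, 11.18, 14.71 and 10.62 on the ES, Day2, Day3, Day4 and Day7 arrays, and its rise on Day4 was 11.6-fold. Its paralogue Cyp26a1 was level at 15.40 and 15.22. The nuclear receptors Nr2f2 and Nr2f1 rose 9.20-fold, from 8.76 to 11.96, and 3.59-fold, from 13.10 to 14.94, and the other probe of Nr2f1 gave 1.91 against 1.85. The RA-binding protein Crabp1 went from 10.36 to 13.35 (7.94-fold), while Crabp2 changed by -0.60. The receptor Rarb and the target Stra8 changed by 0.26 and 0.00.

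Hox genes were raised in part, from Hoxa2 to Hoxc9, and no gene of a higher-numbered group was raised. Among groups 1 to 5, at the 3′ ends of the clusters, 6 of 15 were raised and none lowered, with a median of 0.56. That is 40.0% raised against 3.62% of all genes. Hoxb1, an early gene, changed by -0.38. Hoxd4 went from 11.03 to 13.27 (4.74-fold), Hoxa4 rose by 1.63, Hoxc5 by 1.54, Hoxd3 by 1.32, Hoxa5 by 1.05 and Hoxa2 by 1.02. In the authors' deposited log2 table Hoxa5 and Hoxa2 were just under 2-fold (0.98 and 0.99), and 4 of these 15 were raised. Among groups 6 to 13, 16 of 24 had a value, 5 were raised (31.2%) and none lowered, and the median was 0.68. Hoxc9 went from 7.88 to 9.83 (3.84-fold) and was down to 4.95 on Day7. Hoxc6 rose by 1.55, Hoxd8 by 1.11, Hoxb8 by 1.03 and Hoxc8 by at least 1.25 from a signal of 3.81 that was not well above background. Without normalization 3 were raised and 1 lowered in groups 1 to 5 and 3 and none in groups 6 to 13. With spike-in scaling 1 was raised and 2 lowered in groups 1 to 5 and 1 and 3 in groups 6 to 13, and both medians lost their sign, at -0.49 and 0.00. Caudal epiblast genes were split. Of 9 with a value, 1 was raised (11.1%) and 3 were lowered (33.3% against 4.87% of all genes), with a median of 0.00. Cdx1, a driver of posterior Hox genes, fell from 13.06 to 11.45, Cdx2 from 6.91 to 5.59 (-0.56 after normexp) and the ligand Wnt8a from 8.57 to 6.46, while T and Cdx4 were well above background on neither array. Nkx1-2, a gene of the caudal progenitor zone, rose from 6.49 to 9.88, but its 2 other probes were well above background on neither array.

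Some pluripotency and epiblast genes fell, 25.0% of the list against 4.87% of all genes, while 7.14% rose against 3.62%. Of 28, 7 were lowered and 2 raised, with a median of -0.49. Without normalization 14 were lowered and 1 raised (median -1.0), and with spike-in scaling 20 were lowered and none raised (-1.52). Lefty1, an antagonist of Nodal, stood at 13.50, 14.86, 14.22, 11.09 and 11.27 on the ES, Day2, Day3, Day4 and Day7 arrays, and its fall on Day4 was 8.76-fold. Lefty2 fell by 1.64 and Nodal by 1.06, so that ligand and both antagonists were lowered. Pou5f1 (Oct4) stood at 12.39, 11.68, 10.01, 8.90 and 8.22 and fell by 1.12 on Day4. The DNA methylation genes Dnmt3b and Dnmt3l fell by 1.04 and 1.11. Nanog stood at 9.20, 6.79, 8.85, 9.98 and 8.80, higher on Day4 than on Day3 by 1.13, and Tbx3, which acts with Nanog in ES cells and in many later tissues, rose by 1.47. Dppa5a was at 16.72 and 16.11, so transcripts of undifferentiated cells were well above background on both days.

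Markers of other cell types that embryoid bodies can hold moved as follows, and their part in the results above was not tested. Of 19 mesoderm and vessel genes with a value, 3 were raised and 1 lowered, 15.8% and 5.26% against 3.62% and 4.87% of all genes. The median was 0.30, and the summed linear signal of the list on Day4, which bright probes weigh most, was 1.69 times that on Day3. Lowered genes in it numbered 5 without normalization and also 5 with spike-in scaling. Foxc2, a mesenchyme factor, went from 7.56 to 10.58 (8.15-fold), the smooth muscle actin Acta2 from 10.95 to 13.89 (7.67-fold, SD 0.05 and 0.04 over 10 spots), and Hand2 rose at least 7.10-fold. T and Mesp1 were well above background on neither array. Endoderm genes numbered 16, with 3 raised (18.8%) and 4 lowered (25.0%), or 4 and 1 after normexp and 1 and 7 with spike-in scaling. Their median was 0.02, and their summed signal was 1.79 times that of Day3. Gata6 rose from 7.78 to 10.43 and the keratin Krt19 from 11.50 to 13.29, both with Foxa2, whereas Sox17 was at 8.70 and 8.96, Epcam fell by 1.32, and Afp and Apoa1 were well above background on neither array. Neural crest and surface ectoderm genes included 2 raised of 16 (12.5%), Tfap2a (1.07) and Ets1 (1.01, and 0.87 at its other probe), or none after normexp. Sox10 was at 8.13 and 7.90. Of 8 blood genes with a value, none was raised, Cd34 fell by 2.11 but by 0.50 at its other probe, and the embryonic globin Hbb-y was at 12.08 and 12.77, while the leukocyte genes Ptprc and Spi1 were well above background on neither array.

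Matrix, guidance and stress genes were counted as well. Of 21 collagen and matrix genes 4 were raised, Col3a1 by at least 13-fold, Col4a2 by 1.42, Lama1 by 1.34 and Col4a1 by 1.0, and Col9a1 fell by 1.68, while its other probe changed by at least 0.06. Col9a1 was the only lowered gene and was not past 2-fold after normexp (-0.70) or with the mean over probes. The median of this list was 0.49, with 1 raised and 1 lowered without normalization (-0.05) and 1 and 7 with spike-in scaling (-0.57). Of 26 axon guidance genes, 8 were raised and 1 lowered, with a median of 0.37, against 5 and 1 (0.10) without normalization and 3 and 5 (-0.27) with spike-in scaling. Slit3, a repellent, rose by 1.98, the receptors Epha4, Nrp1 and Nrp2 by 1.84, 1.82 and 1.45, and Robo1 by 1.12, while Sema3e fell by 2.34 and Dcc was level at 13.56 and 13.55. Of 17 immediate early genes 6 were raised and none lowered, among them Fos (1.77, SD 0.14 and 0.06 over 9 and 10 spots), Myc (1.57) and Egr1 (1.12), and 2 of the 6 lay close to a spot bright on a single array. Without normalization 3 were raised, and with spike-in scaling 1 was raised and 3 were lowered, with a median of -0.29. In the glycolysis and hypoxia list 2 of 25 genes were lowered, 8% against 4.87% of all genes, or 5 without normalization and 18 with spike-in scaling, where the median of -0.24 became -0.76 and -1.28. The 2 were the glucose transporters Slc2a1, which fell from 16.56 to 14.98, and Slc2a3, from 15.49 to 14.47, while Gapdh was at 18.46 and 18.48.

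Beyond the lists, the largest rises among genes well above background on both arrays held, next to Neurog2, Nkx6-1, Olig2, Hes5, Cyp26b1, Nr2f2, Crabp1, Nkx2-9, Nkx1-2 and Foxc2, also the matrix protein Ecm1 (15-fold, from 10.41 to 14.32), the secreted calcium-binding protein Smoc2 (12.4-fold), Prdm8, a factor of spinal progenitors and neurons (11.8-fold), Phlda1 (9.57-fold) and Vnn1 (8.17-fold). Ecm1 had stood at 10.32 in ES cells and was at 9.61 on Day7, so Day4 was the only array with the high level, and its other probe rose by 4.79. Among genes well above background on Day4 alone, the largest bounds were those of Shisa3 (at least 20.5-fold), Osr1 (at least 20.2-fold), a mesoderm factor, Ccdc80 (at least 17.6-fold) and Col3a1, followed by Duoxa2, Agxt, Frem1, Olfr6, Adh1 and Pou3f2, a neural POU factor, at 12.5-fold to 9.97-fold.

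Among the 15 largest falls were those of Fermt1, an epithelial integrin activator (15.3-fold), Tll1 (11.6-fold), Pinlyp (9.31-fold), Jph4 (9.08-fold), Mup17 (8.80-fold), Lefty1, Pla2g1b (8.51-fold), Pglyrp1 (7.75-fold), Calca, the calcitonin gene (7.33-fold), Olfr361 (6.95-fold), Hes3, a Hes repressor of early neural progenitors (6.81-fold), Actn3, a muscle actinin (6.31-fold), Plppr5 (6.08-fold) and Upp1 (6.01-fold). Other probes of these genes did not repeat the size: the second probe of Tll1 changed by -0.52, that of Calca by -0.53, and that of Upp1 was well above background on neither array. The largest bounds of genes well above background on Day3 alone were those of Zscan5b, Tas2r144, Pate5, Ces2a, Pcdh9, Gfod1, Olfr317, Rgs18, Tctex1d1 and Gabrg1, at least 20.8-fold to 11.9-fold. Here position on the array moved with the result. Spots with a log2 signal over 7 and well above background on only 1 of the ES, Day3, Day4 and Day7 arrays numbered 67 on Day3, of which 37 lay within 3 rows and columns of another such spot, and 65 on Day4, of which 39 did, whereas 3.70% and 3.51% of all mouse spots lay so close to one. The spot of the gene lay so close in 7 of the 15 largest falls (among them Fermt1, Mup17, Pla2g1b, Pglyrp1, Olfr361 and Plppr5), in 5 of the 10 largest lowered bounds and 2 of the 10 largest raised bounds, and in none of the 15 largest rises. Olfactory, vomeronasal and taste receptors, whose known role is in sensory cells, made up 16 of the 152 raised and 30 of the 184 lowered bounds. Among the genes measured on both arrays they were 1 of the 413 and 3 of the 577. The share of such receptors among all dim genes was not counted. Without genes this close, 512 were raised and 679 lowered, a setting added after seeing the data.

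Other probes of the same gene gave a further check within the arrays. For the 413 genes raised on both arrays, 113 had other probes, and of 122 such probes with a value 102 changed in the same direction, 65 of them 2-fold or more, and 3 changed 2-fold the other way. For the 577 lowered genes, 101 other probes had a value, 87 had the same sign, 55 changed 2-fold or more and none changed 2-fold the other way. For raised genes well above background on Day4 alone, 16 of 36 other probes had a value, 11 with the same sign and 4 of these raised 2-fold or more. For lowered genes well above background on Day3 alone, 6 of 49 had a value, and 3 of the 6 had the same sign. Among the largest bounds, the second probes of Ccdc80 and Duoxa2 rose by at least 0.89 and 1.30. At the 2-fold limit itself, Bcor and Cxcr4 lay just inside with changes of 1.0 and Fzd9 and Ano1 just outside with changes that also round to 1.0. On the lowered side, Mmel1 and Lpar4 lay just inside and A730020M07Rik and Tnfaip2 just outside, all at -1.0 when rounded.

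The course of the changed genes over the other arrays was described without Day2, whose array had 86.7% of probes well above background. Of the 413 genes raised on both arrays, 203 were highest on Day4, 178 on Day7 and 32 in ES cells. Of the 577 lowered genes, 229 were highest on Day3, 214 in ES cells and 134 on Day7. The Day7 array was on another slide than the rest. The median level of the raised genes went from 7.88 to 9.57 and that of the lowered genes from 8.41 to 6.93. Since Day3 and Day4 chose these genes, an excess of Day4 over Day3 is given by the choice.

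Among genes highest on Day4 was a family known from the 2-cell embryo, gathered into a list after the values had been seen. Zscan4 and its partner genes are transcribed at the 2-cell stage and in a small share of ES cells at any time. Of 20 with a value, 16 were raised and 1 lowered, 80.0% and 5.0% against 3.62% and 4.87% of all genes. The median was 2.31 and lay between 1.45 and 2.45 over the other settings. None of the 16 lay close to a spot bright on a single array. Zscan4f stood at 5.09, 7.10, 9.87, 12.46 and 10.35 on the ES, Day2, Day3, Day4 and Day7 arrays, a rise on Day4 of 6.0-fold, and its signal in ES cells did not pass the background flag. Zscan4c went from 8.86 to 11.08 (4.68-fold) and its other probes rose by 2.07 and 2.12, and Zscan4a went from 8.81 to 10.98 (4.50-fold). Gm4340, Gm13043 and AF067061, repeated genes of the same stage, rose by 2.40, 2.70 and 2.56, and Tmem92 by at least 2.99. Zfp352, another gene of that stage, changed by 0.55, and Tdpoz3 was lowered by at least 1.48, or by 0.56 after normexp, where 13 genes of the list were raised and none lowered.

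The promoters of Zscan4c and Zscan4f are shown because these copies of the gene are nearly identical there. Whether a probe of 1 copy also catches the other was not tested, so the members may not be independent measurements. The windows of 250 bases before each start were shifted against each other for the best match without gaps. This left 227 bases, which in 1 of the copies do not reach up to the start. In RefSeq's build GRCm38.p6 they lie at chr7:11005495-11005721 and chr7:11397688-11397914, both on the plus strand. Of the 227 bases 226 (99.6%) are identical, with the differing base in capitals.
Zscan4c promoter: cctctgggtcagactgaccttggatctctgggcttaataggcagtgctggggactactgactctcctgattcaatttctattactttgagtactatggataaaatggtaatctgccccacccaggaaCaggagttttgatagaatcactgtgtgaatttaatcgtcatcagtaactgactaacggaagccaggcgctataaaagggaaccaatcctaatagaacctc
Zscan4f promoter: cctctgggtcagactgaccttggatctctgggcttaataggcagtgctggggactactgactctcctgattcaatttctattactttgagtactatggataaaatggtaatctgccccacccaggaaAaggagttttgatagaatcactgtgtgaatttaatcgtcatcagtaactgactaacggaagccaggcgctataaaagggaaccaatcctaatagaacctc
The similarity of the transcribed parts was not measured here.

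Epithelial genes, also listed after the values had been seen, were lowered in part. Of 37 with a value, 14 were lowered, 37.8% against 4.87% of all genes, and none was raised, with a median of -0.68 that lay below 0 in every setting run. The lowered genes numbered 9 after normexp, 20 without normalization and 30 with spike-in scaling. The summed linear signal of the list, which bright probes weigh most, was 1.03 times that of Day3, while 30 of the 37 changed below 0 and 7 above. Epcam, the epithelial adhesion molecule of ES cells, stood at 12.35, 12.41, 12.19, 10.87 and 8.28 on the ES, Day2, Day3, Day4 and Day7 arrays. Esrp1, the epithelial splicing factor, fell by 1.39, the tight junction proteins Cldn3, Ocln and Cgn by 1.12, 1.14 and 1.18, the polarity protein Crb3 by 1.15, and Mal2 by 2.39. Cdh1, E-cadherin, was at 13.48 and 12.69, a change of -0.79, beside the rise of Cdh2 of 1.17. The keratins Krt8 and Krt18 went against the list with changes of 0.88 and 0.99. Fermt1 and Ap1m2 among the 14 lay close to a spot bright on a single array.

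**Figure D4:**
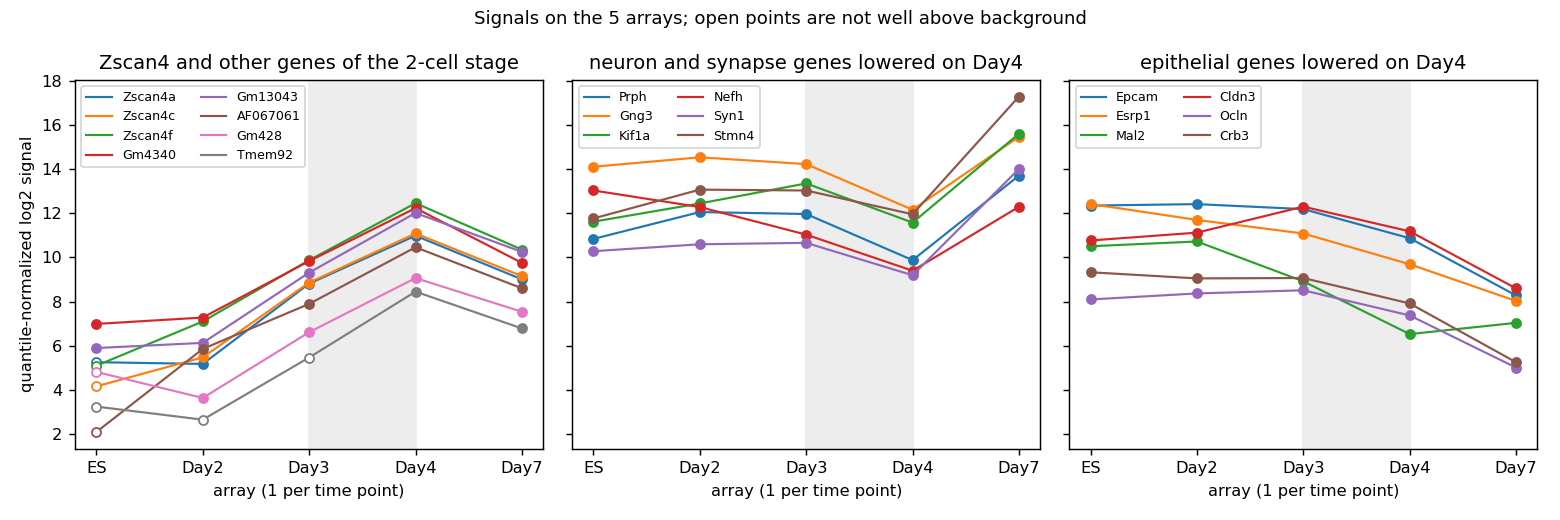
Quantile-normalized log2 signal (vertical) on the 5 arrays (horizontal, 1 array per time point, so no error bars) of 8 genes of the 2-cell stage, 6 neuronal and 6 epithelial genes picked from lists drawn up after the values had been seen, with the step from Day3 to Day4 shaded and open points for signals not well above background. Zscan4f peaks on Day4 at 12.46, Prph dips to 9.88 on Day4 before 13.71 on Day7, and Epcam ends at 8.28 on Day7.

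The balance of rises and falls moved with the scaling, the normexp setting and the detection flag. The normexp setting also used median spot signals and an offset of 50, so background correction alone was not tested. Raised genes made up 42.6% of the changed genes with quantile normalization, 49.1% with a shift to the 75th percentile, 53.0% after normexp background correction and 20.1% without normalization, where the median of all genes was -0.48. With the other detection flag, or with no filter on dim probes, it was 51.6%. The E1A spike-in probes measure control RNA added to the sample, and the amount added per array is not given in the sources used here. Their median log2 signal before normalization was 15.73 on Day3, 16.28 on Day4 and 7.37 on Day7, so the amount read was not the same over the course. From Day3 to Day4 the median change over 10 probes was 0.52, and 9 of the 10 were higher on Day4. Whether this step comes from the amount of control RNA or from the samples was not tested. Scaling to them, an alternative added after seeing the data, put the median of all genes at -1.0 and left 197 genes raised against 7799 lowered. Of the 35 gene lists, 25 held more raised than lowered genes, against 19 without normalization and 5 with spike-in scaling. All directions in the text are therefore relative to the bulk of the genes. The p3 and pMN list (1.63), the 2-cell list (1.45) and the proneural and Notch list (0.25) kept a median above 0 under this scaling as well.

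Some named genes that changed 2-fold or more in the reported setting stayed under it in another. After normexp these were 30 of 191, the raised genes Bcor, Bmper, Boc, Col4a1, Cxcr4, Dbx2, Ets1, Fabp7, Hoxc8, Hoxd8, Ifih1, Jag1, Nefm, Nrarp, Smad7 and Tfap2a and the lowered genes Cdx2, Col9a1, Crb3, Ebf1, Gsx2, L1cam, Lpar4, Mmel1, Nodal, Oas3, Ocln, Olig3, Pou5f1 and Tdpoz3, and the change of 57 of the 191 moved by more than 1.5 times. The largest such loss among raised genes was that of Nrarp, from at least 1.97 to 0.58. The normexp setting adds an offset of 50 to every signal, which by itself shrinks the changes of dim genes. Without normalization they were 31 raised genes with changes of 1.0 to 1.47 in the reported setting, Foxa2, Nanog and Vim among them. With the mean over all probes they were Col9a1, Dcx, Ets1 and Mmel1. With the shift to the 75th percentile, and also in the authors' deposited table, they were Bcor, Col4a1, Hoxa2, Hoxa5, Mmel1 and Sox3.

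**Figure D5:**
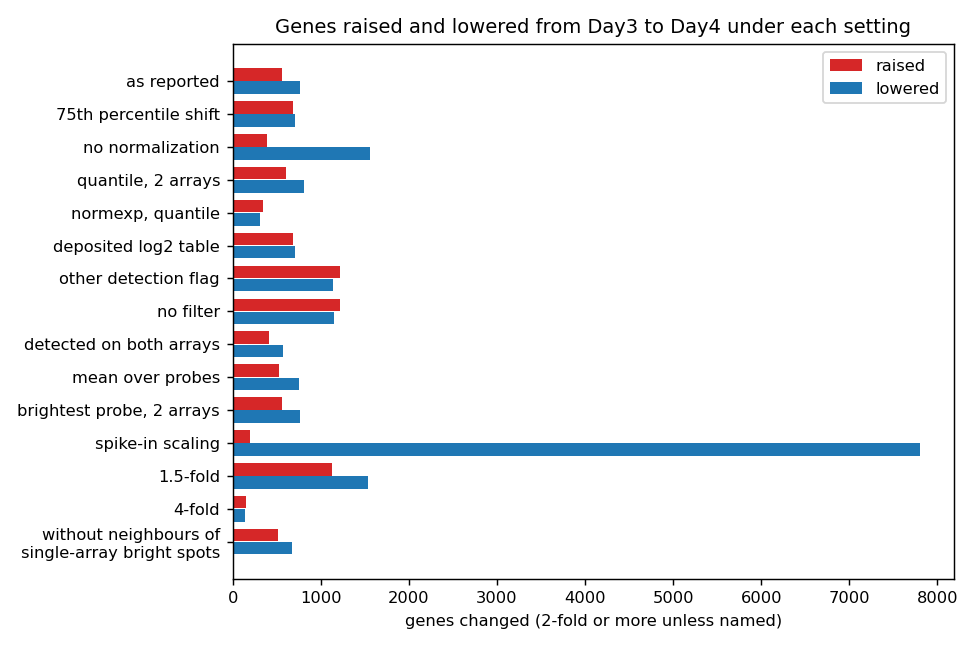
Number of genes (horizontal) raised (red) and lowered (blue) from Day3 to Day4 under each setting (rows), counted at 2-fold unless another fold is named. The counts are 565 raised and 761 lowered as reported, 391 and 1554 without normalization, 350 and 311 after normexp, and 197 and 7799 with spike-in scaling.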

How the data were processed

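Day3 and Day4 were each measured on 1 single-colour Agilent array on the same slide. The ES and Day2 arrays shared this slide, and the Day7 array was on another. The authors deposited scanner output of Agilent Feature Extraction 10.5.1, in which spot intensity was background-subtracted and detrended but not normalized between arrays, and a log2 table that equals, within 0.01 for 100% of probes, the log2 intensity of each probe minus a constant per array, the 75th percentile. Control and outlier spots were left out, log2 intensities averaged per probe, and the 5 arrays quantile-normalized in limma 3.58.1 (R 4.3.3). The study names Quantile analysis, without further detail, for its heat map of Hoxa genes. Further steps used Python 3.11.15 with numpy 2.4.6, pandas 2.3.3 and matplotlib 3.10.9. No spot was saturated. Probes were named by accession through RefSeq's GRCm38.p6 table; 29381 did not match. The probe brightest over the 5 arrays stood for its gene. Where a gene was not well above background on 1 array, its level there was the higher of its own signal and the lowest signal well above background; 632 genes not exceeding this level entered medians at 0, and 4271 genes that passed the background flag on neither array were left out. Genes named were list members past 2-fold, the defining members of each list, the 15 largest rises and falls, the 10 largest bounds and the neighbours of the limit; some of these are not reported here. Members and lists were chosen with earlier results of these data known. The lists for 2-cell stage, epithelial, synaptic, imprinted, interferon and trophoblast genes, and those of their genes that are named, were chosen after their values were seen. The steps were tested on simulated data. The alternatives tried were other normalizations, background correction, detection flags, filters, probe choices and folds.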

Additional observations from a re-analysis of the deposited data

Results flagged for a closer look

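Probes without a matched gene name carried changes that the comparison of genes did not use. Of 29381 such probes 16570 had a value, and 468 of them (2.82%) were raised and 635 (3.83%) lowered 2-fold or more from Day3 to Day4, with 251 and 307 of these well above background on both arrays. There was no control sample to set them against, and the genes with names gave 3.62% and 4.87%.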

How the results depend on the processing

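Counts of raised and lowered genes moved by more than 1.5 times from 565 and 761 under these settings. Without normalization 1554 genes were lowered. After normexp with an offset of 50, 350 were raised and 311 lowered, of which 347 and 310 were among the genes of the reported setting. With the other detection flag the counts were 1217 and 1143, with no filter on dim probes 1220 and 1145, at 1.5-fold 1133 and 1540, and at 4-fold 146 and 137. With spike-in scaling, added after seeing the data, 197 were raised and 7799 lowered, and the changes of Col4a1 and Sox3 turned to -0.038 and -0.015 on the log2 scale. Of the 191 genes named in the text that were past 2-fold, 161 stayed past it in the same direction after normexp, 160 without normalization, 139 with spike-in scaling and at least 185 under each other setting, except that 32 had no value when both arrays had to pass the background flag. The other settings kept both counts within 1.5 times, from 413 to 684 raised and from 577 to 814 lowered. Signal over background limits dim genes, of which 715 had a bound, 632 no fold and 4271 no value. No paired analysis was possible because Day3 and Day4 had a single array each, and for the same reason no replicate could be left out. Normexp was run on median spot signals.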

Other observations

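Many interferon-stimulated genes, listed after their values had been seen, were higher on Day4. Of 49 with a value 23 were raised, 46.9% against 3.62% of all genes, and 1 was lowered, with a median change of 0.46. Without normalization 14 were raised, and with spike-in scaling 6 were raised and 7 lowered, with a median of 0.00. Ifi27 went from 7.22 to 9.81 (6.01-fold), the guanylate-binding protein gene Gbp2 from 8.91 to 11.04 (4.40-fold), Isg15, a ubiquitin-like modifier, from 9.09 to 10.38 (2.45-fold) and the immunoproteasome subunit Psmb8 from 8.40 to 10.16 (3.38-fold). Irf9 and Stat2, transcription factors of the response, changed by 0.16 and -0.38. The sensor Ifih1 rose by 1.22, and Oas3 fell by 1.09.

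Imprinted and placental genes, also listed after their values had been seen, held further rises. Of 36 imprinted genes 10 were raised, 27.8% against 3.62% of all genes, and 1 was lowered, with a median of 0.24. Without normalization 5 were raised and 2 lowered (median -0.23), and with spike-in scaling 4 were raised and 10 lowered (-0.75). Dlk1, a growth regulator, went from 11.78 to 14.45 (6.38-fold) and its other probe rose by 2.72. The zinc finger gene Plagl1 went from 12.64 to 15.21 (5.94-fold), while its other probes changed by 2.62, 0.47 and 0.85, and the growth factor Igf2 went from 8.70 to 10.62 (3.79-fold). Meg3 was level at 15.28 and 15.18. Of 27 trophoblast genes with a value 12 were raised, 44.4% against 3.62% of all genes, and 1 was lowered, with 8 raised and 2 lowered without normalization and 3 and 3 with spike-in scaling. The raised ones held the homeobox genes Rhox6 and Rhox9 (1.67 and 1.55), the prolactin family gene Prl2a1 (1.88) and Plac1 (1.25). Elf5 had no fold, Eomes changed by -0.20 and Cdx2 fell by 1.33, or by 0.56 after normexp, where no gene of this list was lowered.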
